A study of Mus musculus with 4 samples.

Results

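To describe how hepatocytes next to the central vein of the liver lobule fared without *Usp21*, 9 genes that mark these cells were followed in liver RNA-seq: *Glul*, *Slc1a2*, *Rhbg*, *Oat*, *Cyp2e1*, *Cyp1a2*, *Lgr5*, *Axin2* and *Tbx3*. The genes were picked by symbol, and all 9 had a row among the 35739 genes of the expression table. None of the 9 passed the test between genotypes. The livers came from WT mice (the libraries WT 2 and WT 3) and *Usp21* KO mice (KO 1 and KO 3), 2 libraries per genotype. *Usp21* encodes a deubiquitylase, an enzyme that takes ubiquitin off other proteins. In the KO mice a floxed allele had been recombined by Cre into a constitutive deletion, so that exons 3 and 4 were absent in every tissue and not in hepatocytes alone. The WT mice were littermates of the KO mice, born to B6 mice crossed with KO allele carriers of mixed background, so that the genetic background was not uniform. All were 10 to 11 weeks old and ate a normal diet. Sex, fasting state and hour of sampling were not given in the sources used here. Expression was given as TPM (the abundance of a gene's transcripts corrected for their length and scaled to one total in every library, so that levels of different genes can be compared).

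Blood crosses the liver lobule from the portal vein to the central vein, and hepatocytes along this path carry out different tasks. Endothelial cells of the central vein secrete Wnt ligands and R-spondin, which keep β-catenin active in the nearest hepatocytes. With TCF/LEF proteins, β-catenin drives a pericentral program that includes the capture of leftover ammonium as glutamine and the oxidation of drugs and toxins by cytochrome P450 enzymes, while urea and glucose production lie nearer the portal vein.

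The targeted gene, *Usp21* (chr1:171281945-171287991, minus strand, GRCm38), had a level of 4.07 and 6.29 TPM in WT against 1.64 and 2.93 TPM in KO. Both KO libraries lay below WT, but RNA from the locus was still detected and the difference did not pass the test (log2 fold change -0.92, SE 0.33, adjusted p 0.464, limma). This value covers the whole gene and does not separate the deleted exons from the remaining ones. The libraries held between 12876 and 13620 genes above 0 TPM, and their 10 most abundant genes took 25.7% to 30.7% of the total. The read totals that could be recovered from the second deposited table ran from 102898 to 148164, a table in which the pericentral genes had 0 to 2 reads and could not be compared. The defining hepatocyte marker *Alb* stood at 43180 and 32020 TPM in WT and at 31010 and 27480 TPM in KO. All 3 exocrine pancreas markers were at 0 in every library.

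Genes were tested where their mean reached 1 TPM. Of these 9581 genes, 8 (0.0835%) had an adjusted p under 0.05 (limma on log2(TPM + 1), Benjamini-Hochberg), and 1005 (10.5%) had an unadjusted p under 0.05. Of the 9 pericentral genes, 7 passed this filter on low values, and *Lgr5* and *Axin2* were read from the fit without it. None of the 9 had an adjusted or an unadjusted p under 0.05 in limma. Values of 6 genes were lower in KO by their log2 fold change, against 33.3% of all genes tested, and 3 were higher. With the libraries scaled to their upper quartile, 7 of the 9 and 46.0% of all genes tested were lower. Both KO libraries lay below both WT libraries for 5 genes (*Glul*, *Slc1a2*, *Rhbg*, *Cyp2e1* and *Cyp1a2*), which was so for 10.9% of all genes tested. Both lay above for *Tbx3*, which was so for 34.4% of them. The groups overlapped for *Oat*, *Axin2* and *Lgr5*. The 6 genes with lower values and the 5 without overlap were all among the 7 that passed the filter.

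The median log2 fold change over the 9 genes was -0.29, while that over all genes tested was 0.15. Without WT 2 the median of the 9 was -0.036, and without WT 3 it was -0.57. Upper quartile scaling brought the median of all genes to 0.04 and that of the 9 to -0.42. Abundant genes were tallied on their own, since 4 of the 9 are abundant. Of 822 genes whose mean reached 100 TPM, a cutoff chosen after the values were seen, 42.7% had a log2 fold change under 0 and 17.3% had both KO libraries below both WT libraries. *Glul*, *Oat*, *Cyp2e1* and *Cyp1a2* are among these 822. In RNA of whole liver, fewer pericentral cells and less RNA per cell cannot be told apart. With 2 libraries against 2, an exact permutation test cannot give a two-sided p below 0.333, and p-values measure the spread between these samples only.

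**Figure D1:**
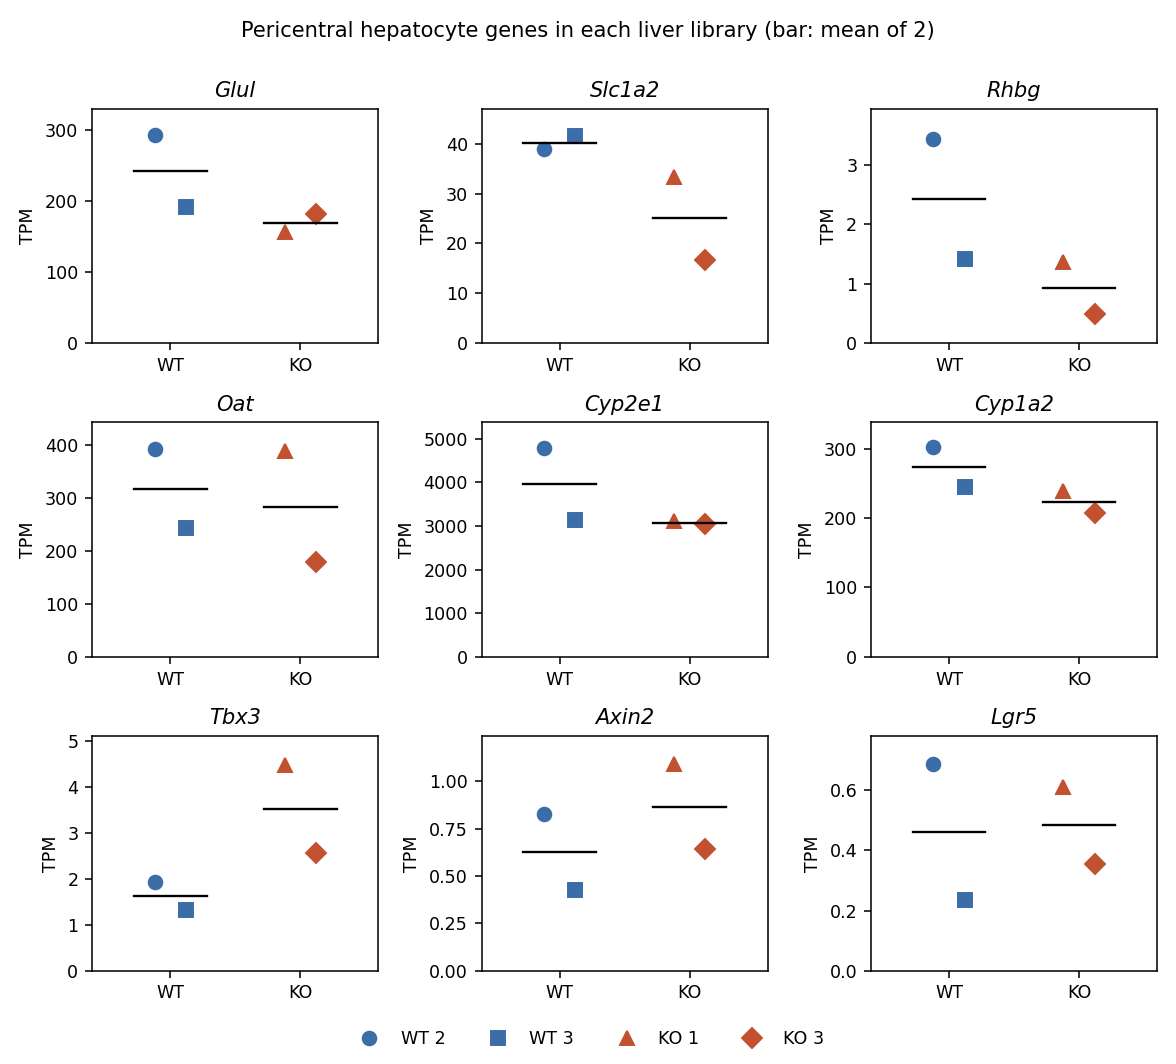
TPM of each of the 9 genes (one panel per gene, each with its own linear axis starting at 0) in the 2 WT and the 2 KO libraries. Points are libraries and bars are means of 2, and the KO points lie below the WT points for *Glul*, *Slc1a2*, *Rhbg*, *Cyp2e1* and *Cyp1a2*, above them for *Tbx3*, and among them for *Oat*, *Axin2* and *Lgr5*.

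The first of 3 functional groups handles glutamine, glutamate, ornithine and ammonium. *Glul* (ENSMUSG00000026473, chr1:153899944-153909723, plus strand) encodes glutamine synthetase, which joins ammonium to glutamate in the hepatocytes closest to the central vein. Its level was 294 and 193 TPM in WT against 157 and 182 TPM in KO, a mean of 243 ± 71.6 against 169 ± 17.9 TPM (SD, n = 2 each). Both KO libraries were below WT 3, the lower WT library, which itself lay nearer to the KO libraries than to WT 2. This gave a log2 fold change of -0.49 (SE 0.25, 95% interval -1.10 to 0.12), with an adjusted p of 0.512 in limma. It shrank to -0.19 without WT 2 and grew to -0.79 without WT 3. Other genes, mostly the pseudogene *Glns-ps1*, share 20.4% of the 31-base stretches of its transcripts, but genes above 0 TPM share only 2.62%.

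*Slc1a2* (ENSMUSG00000005089, chr2:102658659-102790784, plus strand) encodes the glutamate transporter GLT-1, which brings glutamate into the same cells. Its level was 38.8 and 41.5 TPM in WT against 33.4 and 16.7 TPM in KO. The WT libraries were close together, and the distance between the genotypes came mostly from KO 3. Its log2 fold change was -0.74 (SE 0.33, 95% interval -1.56 to 0.09; adjusted p 0.491, limma), with -0.26 without KO 3 and -1.22 without KO 1.

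*Rhbg* (ENSMUSG00000104445, chr3:88242874-88254709, minus strand) encodes an ammonium transporter of the Rh glycoprotein family. Its level was low, 3.44 and 1.42 TPM in WT against 1.36 and 0.483 TPM in KO, with WT 3 and KO 1 almost level. This difference, a log2 fold change of -0.81 (SE 0.41, 95% interval -1.84 to 0.23), had an adjusted p of 0.516 in limma. It ran from -1.24 without WT 3 to -0.37 without WT 2, and was -1.33 with a pseudocount of 0.1 and -0.32 with one of 5. The level itself is uncertain, because 60.8% of the 31-base stretches of its transcript also occur in *Gm38392*, an overlapping gene on the same strand. *Gm38392* stood at 1.42 and 4.09 TPM in WT and at 2.22 and 3.21 TPM in KO, in the opposite order to *Rhbg* within each genotype. The summed level of both genes was 4.86 and 5.50 TPM in WT against 3.58 and 3.69 TPM in KO, so that the KO libraries stayed below the WT libraries in the sum as well.

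*Oat* (ENSMUSG00000030934, chr7:132557478-132576398, minus strand) encodes ornithine aminotransferase, which links ornithine to glutamate. Its level was 391 and 243 TPM in WT against 388 and 178 TPM in KO. The genotypes overlapped, with KO 1 next to the top and KO 3 at the bottom. The log2 fold change of -0.23 (SE 0.42, 95% interval -1.27 to 0.82; adjusted p 0.851, limma) turned to 0.33 without KO 3 and to 0.12 without WT 2.

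The second group holds 2 cytochrome P450 enzymes, which oxidize foreign compounds in the pericentral zone. *Cyp2e1* (ENSMUSG00000025479, chr7:140763739-140774987, plus strand), which oxidizes ethanol and other small molecules, was the member with the highest level and ranked 43 among all genes by mean TPM. It stood at 4802 and 3150 TPM in WT and at 3106 and 3041 TPM in KO. WT 2 stood apart from the other libraries, and WT 3 was only slightly above KO 1. Between genotypes the log2 fold change was -0.34 (SE 0.27, 95% interval -1.01 to 0.33; adjusted p 0.646, limma). Without WT 2 it was -0.04, so the size of this difference rested on that library.

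*Cyp1a2* (ENSMUSG00000032310, chr9:57676937-57683703, minus strand), which oxidizes caffeine and many aromatic amines, stood at 302 and 244 TPM in WT and at 239 and 208 TPM in KO. As for *Cyp2e1*, WT 2 was highest and WT 3 barely exceeded KO 1. The log2 fold change was -0.29 (SE 0.19, 95% interval -0.76 to 0.19; adjusted p 0.590, limma), -0.13 without WT 2, -0.18 without KO 3 and -0.44 without WT 3. Its paralog *Cyp1a1*, which shares 7.67% of its 31-base stretches, was under 1 TPM in every library.

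The start regions of these genes are shown because TCF/LEF proteins recognise a short core that can be looked for directly. Sequences from RefSeq (GRCm38.p6, 250 bases before to 50 after the start) were given for 6 of the 9 genes, *Glul*, *Slc1a2*, *Oat*, *Cyp2e1*, *Cyp1a2* and *Axin2*. The letters CTTTGAT or CTTTGAA, on either strand, occurred in 3 of the 6, compared with 8.65% of all 32851 promoters of the same length. In *Cyp2e1* (chr7:140763569-140763868, plus strand) the match begins 135 bases before the start. In *Cyp1a2* (chr9:57683606-57683905, minus strand) it begins 244 bases before the start, on the other strand. In *Slc1a2* (chr2:102706188-102706487, plus strand) it begins 207 bases before a RefSeq start that lies inside the span of the gene, also on the other strand. Capitals mark the match, read 5′ to 3′ along the strand of the gene.
Cyp2e1: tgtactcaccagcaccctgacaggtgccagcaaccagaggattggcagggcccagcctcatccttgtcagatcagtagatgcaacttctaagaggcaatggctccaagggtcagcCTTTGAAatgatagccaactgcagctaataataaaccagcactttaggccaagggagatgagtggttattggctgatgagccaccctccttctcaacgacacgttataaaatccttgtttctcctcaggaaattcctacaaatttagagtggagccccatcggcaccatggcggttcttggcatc
Cyp1a2: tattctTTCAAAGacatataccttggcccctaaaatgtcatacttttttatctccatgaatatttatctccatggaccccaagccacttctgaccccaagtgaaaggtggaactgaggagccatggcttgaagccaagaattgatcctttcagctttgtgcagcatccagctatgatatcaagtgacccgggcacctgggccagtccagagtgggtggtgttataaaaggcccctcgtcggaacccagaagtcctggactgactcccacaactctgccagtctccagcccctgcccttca
Slc1a2: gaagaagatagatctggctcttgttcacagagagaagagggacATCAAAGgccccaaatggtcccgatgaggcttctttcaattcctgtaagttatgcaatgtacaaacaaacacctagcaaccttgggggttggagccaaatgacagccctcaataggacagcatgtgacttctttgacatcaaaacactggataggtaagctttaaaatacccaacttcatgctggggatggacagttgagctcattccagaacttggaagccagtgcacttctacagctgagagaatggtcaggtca
A match of these letters is a description of the sequence and not a binding site. The 3 genes with a match had log2 fold changes of -0.34, -0.29 and -0.74, while *Glul*, *Oat* and *Axin2*, without a match in their windows, had -0.49, -0.23 and 0.20.

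The third group holds a receptor and targets of the Wnt pathway and was measured at a far lower level. *Tbx3* (ENSMUSG00000018604, chr5:119670669-119684724, plus strand), a T-box transcription factor and β-catenin target in the liver, stood at 1.94 and 1.32 TPM in WT and at 4.48 and 2.55 TPM in KO. Both KO libraries lay above both WT libraries, the opposite order to that of *Glul*, *Cyp2e1* and *Cyp1a2*. Its log2 fold change was 0.75 (SE 0.32, 95% interval -0.04 to 1.55), with an adjusted p of 0.479 and an unadjusted p of 0.0598 in limma, the smallest of the 9. Leaving out each library in turn gave values from 0.44 (without KO 1) to 1.07 (without KO 3), and pseudocounts of 0.1 and 5 gave 1.03 and 0.35.

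*Axin2* (ENSMUSG00000000142, chr11:108920349-108950783, plus strand), a negative feedback target that helps to degrade β-catenin, stood at 0.829 and 0.428 TPM in WT and at 1.09 and 0.640 TPM in KO. *Lgr5* (ENSMUSG00000020140, chr10:115450311-115587780, minus strand), a receptor for R-spondins, stood at 0.686 and 0.235 TPM in WT and at 0.612 and 0.354 TPM in KO. For both genes the spread within a genotype was as large as the distance between genotypes. The log2 fold change of *Axin2* was 0.20 (SE 0.25, 95% interval -0.43 to 0.83; adjusted p 0.799, limma without the filter), and it ran from 0.019 without WT 3 to 0.38 without WT 2. That of *Lgr5* was 0.03 (SE 0.22, 95% interval -0.54 to 0.61; adjusted p 0.969, limma without the filter), and with upper quartile scaling it was -0.011.

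**Figure D2:**
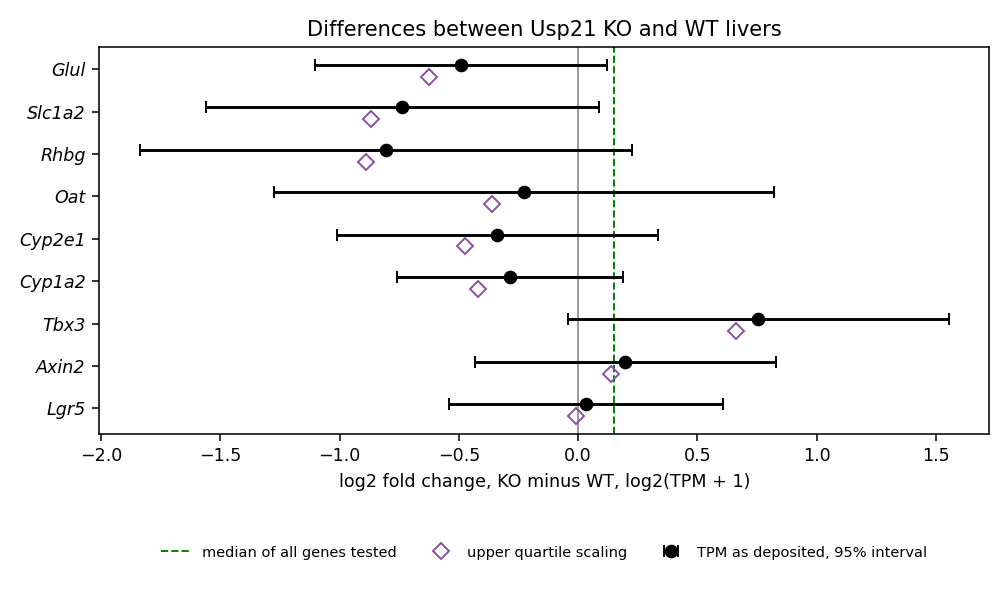
Log2 fold change (KO minus WT) of the 9 genes with its 95% interval (black), the value after upper quartile scaling (purple diamonds) and the median of all genes tested (green dashed line, 0.15). Every interval includes 0, *Tbx3* has the highest value and *Rhbg* the lowest.

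The 9 genes did not vary as a block. WT 2 was the highest library for 6 of them (*Glul*, *Oat*, *Rhbg*, *Cyp2e1*, *Cyp1a2* and *Lgr5*), and KO 3 was the lowest for 5 (*Oat*, *Rhbg*, *Slc1a2*, *Cyp2e1* and *Cyp1a2*). WT 3 held the lowest value of *Lgr5*, *Axin2* and *Tbx3*, and KO 1 the lowest of *Glul*. The summed level of the 9 genes was 5835 and 3874 TPM in WT against 3930 and 3629 TPM in KO, of which *Cyp2e1* alone made 79.0% to 83.8%. Without *Cyp2e1* the sum was 1033 and 724 TPM in WT against 824 and 589 TPM in KO, and the groups overlapped.

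Ratios within a library do not depend on its scaling. Per 100 TPM of *Cyp2e1* there were 6.12 and 6.11 TPM of *Glul* in WT against 5.05 and 5.99 TPM in KO, KO 1 lying below the other libraries. *Oat* per 100 TPM of *Cyp2e1* spread more widely, with 8.15 and 7.71 TPM in WT against 12.5 and 5.87 TPM in KO, the KO libraries lying on either side of WT. *Tbx3* per 100 TPM of *Glul* was 0.660 and 0.688 TPM in WT against 2.86 and 1.40 TPM in KO. This order follows from *Tbx3* being higher and *Glul* lower in both KO libraries, so it adds nothing to them. The genotypes overlapped for *Slc1a2* per 100 TPM of *Glul*, with 13.2 and 21.6 TPM in WT against 21.3 and 9.20 TPM in KO. They also overlapped for *Cyp1a2* per 100 TPM of *Cyp2e1*, with 6.30 and 7.75 TPM in WT against 7.70 and 6.83 TPM in KO.

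**Figure D3:**
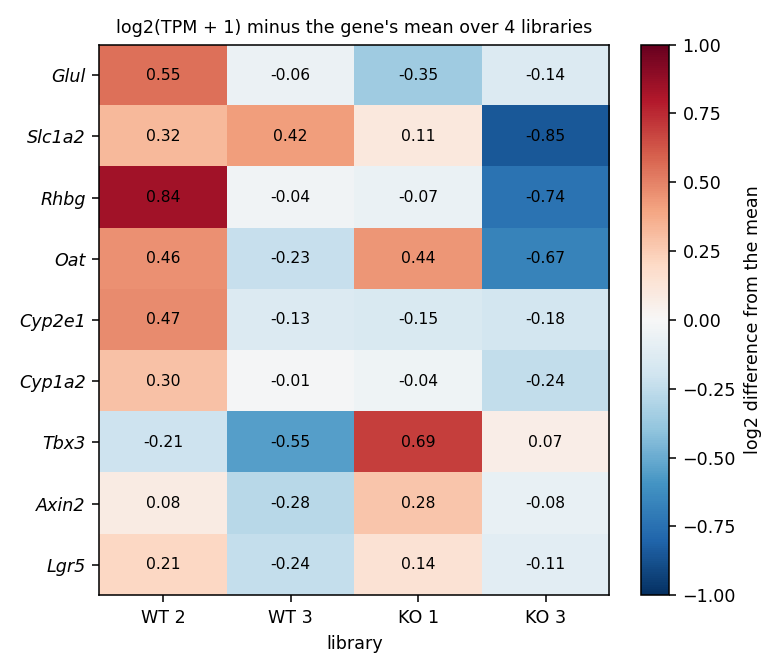
Level of each of the 9 genes in the 4 libraries, as log2(TPM + 1) minus the mean of that gene over the libraries. *Glul*, *Cyp2e1* and *Cyp1a2* peak in WT 2, *Oat* is high in WT 2 and KO 1, and *Tbx3* is highest in KO 1.

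The genes with the profile most like that of *Glul* over the 4 libraries, by Euclidean distance of centred log2(TPM + 1) among 2639 candidates whose mean reached 20 TPM, were *Tcn2*, *Slc10a1*, *Oaz1-ps*, *Pcx* and *Dhrs7l*, at distances of 0.128 to 0.186. For *Cyp2e1* they were *Slc46a1*, *Ift46*, *Pepd*, *Fth1* and *Cela1*, at 0.125 to 0.158. No member was among these nearest genes, but this does not make the profiles of *Glul* and *Cyp2e1* unlike each other. Both peaked in WT 2 and lay below their own mean in the other libraries. In the order WT 2, WT 3, KO 1 and KO 3, the centred values of *Glul* were 0.549, -0.058, -0.353 and -0.138. Those of *Cyp2e1* were 0.474, -0.134, -0.155 and -0.185. With 4 libraries, likeness of profiles is a description only.

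Other genes of the pericentral zone were then examined, a list of 17 of which 16 passed the filter. Like the members and the lists that follow, it was chosen with earlier results of these data known. Its counts are therefore a description only. Of these 16, 12 had a log2 fold change under 0 and 4 above, and with upper quartile scaling 14 and 2, where the shares under 0 among all genes tested were 33.3% and 46.0%. None had an adjusted p under 0.05 in limma, while 3 had an unadjusted p under 0.05, against 10.5% of all genes tested. The study had named *Cyp2a5*, a coumarin-hydroxylating P450, among its top downregulated genes, a shortlist made for a part in lipid metabolism and not by p alone. This gene had the smallest p here. Its level was 495 and 616 TPM in WT against 222 and 177 TPM in KO, a wide gap between the genotypes. This was a log2 fold change of -1.47 (SE 0.21), with an adjusted p of 0.188 in limma. *Gulo*, which makes vitamin C in rodents, stood at 137 and 119 TPM in WT and at 99.96 and 73.5 TPM in KO. *Cldn2*, a tight junction protein, stood at 23.3 and 27.9 TPM in WT and at 18.8 and 15.3 TPM in KO. The most abundant genes of the list overlapped between genotypes. *Cyp2c29*, another P450, stood at 1177 and 921 TPM in WT and at 466 and 926 TPM in KO, with KO 1 apart from the rest. *Rgn*, encoding the calcium-binding protein regucalcin, stood at 438 and 655 TPM in WT and at 595 and 533 TPM in KO.

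All 12 periportal genes on the opposite list passed the filter, and none had an unadjusted p under 0.05 in limma. Of these, 11 had a log2 fold change above 0, but only 7 with upper quartile scaling and 6 without KO 1. The shares above 0 among all genes tested were 66.7%, and 54.0% with upper quartile scaling. Their median was 0.20, close to the 0.15 of all genes, and their summed level of 5571 and 5386 TPM in WT against 7490 and 5287 TPM in KO was set apart by KO 1 alone. *Ass1*, an enzyme of the urea cycle, illustrates this with 2137 and 1960 TPM in WT against 3138 and 1551 TPM in KO. *Cdh1*, encoding E-cadherin, stood at 7.19 and 7.83 TPM in WT and at 18.9 and 9.33 TPM in KO, and *Sds*, encoding serine dehydratase, at 103 and 92.4 TPM in WT and at 219 and 105 TPM in KO.

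**Figure D4:**
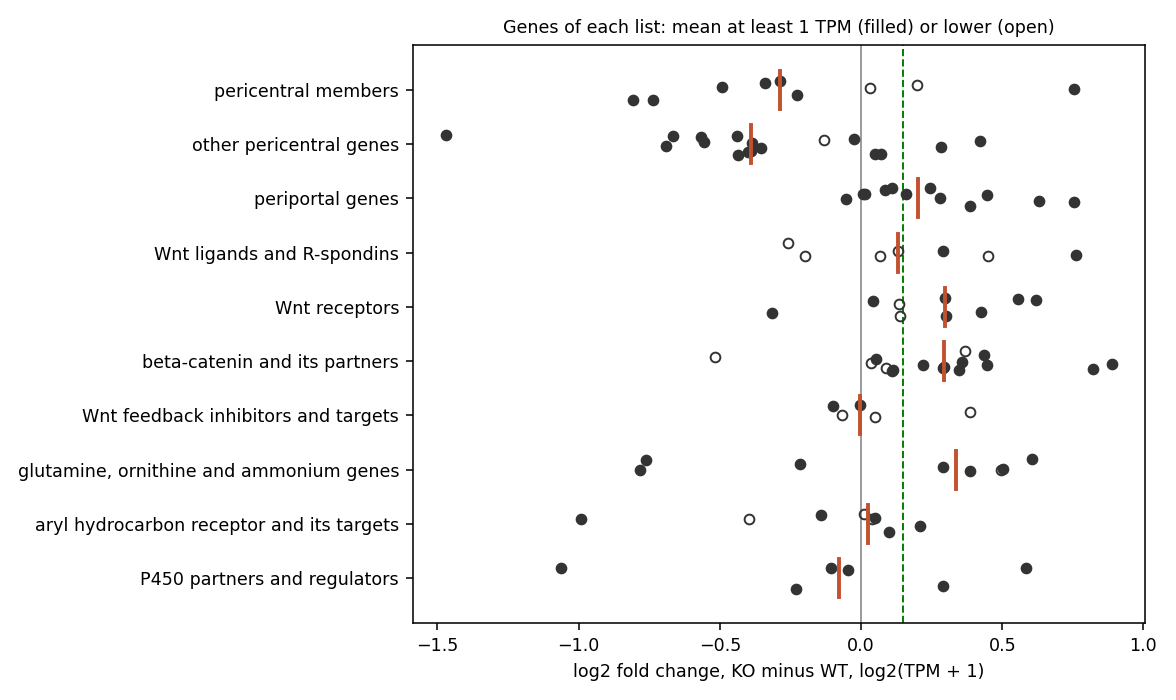
Log2 fold change (KO minus WT) of every gene in the pericentral, periportal and Wnt pathway lists and in the lists of metabolic partners. Filled points reach a mean of 1 TPM and open points do not, red bars are list medians over all genes fitted and the green dashed line is the median of all genes tested (0.15). Medians of the 9 genes and of the other pericentral genes lie below 0, and those of the periportal, receptor and β-catenin lists above it.

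Wnt ligands were barely detected in RNA of whole liver. Of 8 Wnt ligand, R-spondin and secretion genes only *Rspo3* and *Porcn* passed the filter, and *Rspo1* was at 0 in every library. *Wnt2* and *Wnt9b*, ligands of the central vein endothelium, were near the limit of what could be measured: *Wnt2* stood at 1.04 and 0.512 TPM in WT and at 0.424 and 0.519 TPM in KO, and *Wnt9b* at 0.314 and 0.155 TPM in WT and at 0 and 0.154 TPM in KO. *Rspo3*, the R-spondin of the same cells, stood at 1.14 and 1.09 TPM in WT and at 2.18 and 1.11 TPM in KO, with KO 1 apart from the rest. *Porcn*, the acyltransferase that Wnt ligands need for secretion, stood at 0.857 and 0.874 TPM in WT and at 1.82 and 2.55 TPM in KO, with an unadjusted p of 0.0330 and an adjusted p of 0.464 in limma.

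Of 9 Wnt receptor genes, 7 passed the filter and 6 of these had a log2 fold change above 0, 5 with upper quartile scaling, beside the 66.7% and 54.0% of all genes tested. None had an unadjusted p under 0.05 in limma. The co-receptors *Lrp5* and *Lrp6* lay higher in both KO libraries, *Lrp6* at 4.56 and 5.70 TPM in WT and at 8.07 and 7.86 TPM in KO, and *Lrp5* at 9.46 and 8.48 TPM in WT and at 11.9 and 12.9 TPM in KO. Of 16 genes for β-catenin and its partners, 12 passed the filter and all 12 had a log2 fold change above 0, 10 with upper quartile scaling, where the same shares of all genes apply. None had an adjusted p under 0.05 in limma and 3 had an unadjusted p under 0.05, against 10.5% of all genes. With the genes below the filter included, 15 of the 16 had a log2 fold change above 0 and 1 had a value below it. *Ctnnb1*, which encodes β-catenin, stood at 78.6 and 80.8 TPM in WT and at 121 and 98.3 TPM in KO. *Bcl9l*, a coactivator of β-catenin, stood at 1.93 and 1.95 TPM in WT and at 4.20 and 4.70 TPM in KO, and *Apc*, which helps to degrade β-catenin, at 0.807 and 0.804 TPM in WT and at 2.54 and 1.87 TPM in KO. Of 5 feedback genes beside *Axin2*, 2 passed the filter, and the genotypes overlapped for both. *Notum* stood at 17.3 and 16.0 TPM in WT and at 18.4 and 14.98 TPM in KO, and *Rnf43* at 3.51 and 1.25 TPM in WT and at 3.07 and 1.18 TPM in KO. Below the filter, *Znrf3*, a ligase that removes Wnt receptors, stood at 0.686 and 0.346 TPM in WT and at 1.09 and 0.849 TPM in KO. For this gene KO 1 and KO 3 exceeded WT. Also below the filter, *Nkd1* and *Sp5* overlapped between genotypes. *Nkd1* stood at 1.74 and 0.294 TPM in WT and at 1.15 and 0.766 TPM in KO. *Sp5* stood at 0.751 and 0.594 TPM in WT and at 0.892 and 0.340 TPM in KO.

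Metabolic partners of *Glul* and *Oat* lay on both sides of 0. Of 10 genes for glutamine, ornithine and ammonium, 7 passed the filter. Of these 7, 4 had a log2 fold change above 0, against 66.7% of all genes tested, and 3 below. None had an adjusted p under 0.05 in limma, and 3 had an unadjusted p under 0.05, where 10.5% of all genes did. *Slc38a3*, a glutamine transporter, stood at 485 and 491 TPM in WT and at 308 and 268 TPM in KO, with an adjusted p of 0.443 in limma. *Prodh*, encoding proline dehydrogenase, stood at 60.8 and 102 TPM in WT and at 54.7 and 37.5 TPM in KO. *Slc25a15*, the mitochondrial ornithine carrier, was at 74.8 and 63.9 TPM in WT and at 111 and 87.3 TPM in KO. *Gls2*, the periportal glutaminase that releases ammonium from glutamine, overlapped between genotypes, with 148 and 179 TPM in WT against 309 and 147 TPM in KO.

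The P450 enzymes need an electron donor, and *Por*, which encodes their reductase, stood at 175 and 168 TPM in WT and at 81.8 and 81.4 TPM in KO. Its log2 fold change was -1.06 (SE 0.16), with an adjusted p of 0.203 in limma. *Hnf4a*, a transcription factor of hepatocytes, stood at 112 and 105 TPM in WT and at 171 and 155 TPM in KO, with an adjusted p of 0.464 in limma. Both groups of libraries were well separated for these genes. They were the only 2 of the 6 P450 partners and regulators with an unadjusted p under 0.05 in limma, against 10.5% of all genes. Among 9 genes of the aryl hydrocarbon receptor, which controls *Cyp1a2*, *Ahr* itself stood at 3.68 and 3.25 TPM in WT and at 3.69 and 3.53 TPM in KO. *Nqo1* encodes a quinone reductase, and the study named it in the same shortlist of downregulated genes as *Cyp2a5*. It was the only 1 of the 5 tested with an unadjusted p under 0.05 in limma, against 10.5% of all genes tested. Its level was 4.84 and 3.89 TPM in WT against 2.46 and 1.08 TPM in KO. None of the genes of either list had an adjusted p under 0.05 in limma.

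Levels of cell type markers were set beside these values. The summed level of 5 hepatocyte markers was 69800 and 55300 TPM in WT against 58290 and 47910 TPM in KO, a sum dominated by *Alb*. *Alb* was highest in WT 2 and lowest in KO 3, as were *Oat*, *Rhbg*, *Cyp2e1* and *Cyp1a2*, but none of the other 4 hepatocyte markers had this order. *Apoa1* was highest in KO 1, at 12870 TPM, and *Fgb* was lowest in WT 2, at 1056 TPM, and highest in KO 1, at 2106 TPM. That of 6 endothelial markers was 45.0 and 34.9 TPM in WT against 37.6 and 54.9 TPM in KO, that of 4 Kupffer cell markers 84.7 and 93.2 TPM against 48.2 and 126 TPM, and that of 4 stellate cell markers 67.3 and 49.7 TPM against 93.4 and 72.9 TPM. The 4 red blood cell markers summed to 865 and 832 TPM in WT and to 812 and 669 TPM in KO, the 4 cholangiocyte markers to at most 4.56 TPM and the 3 lymphocyte markers to at most 3.16 TPM. The share of mitochondrially encoded RNA was 16.3% and 11.6% in WT and 16.5% and 15.5% in KO. The part of these differences in the pericentral values was not tested.

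**Figure D5:**
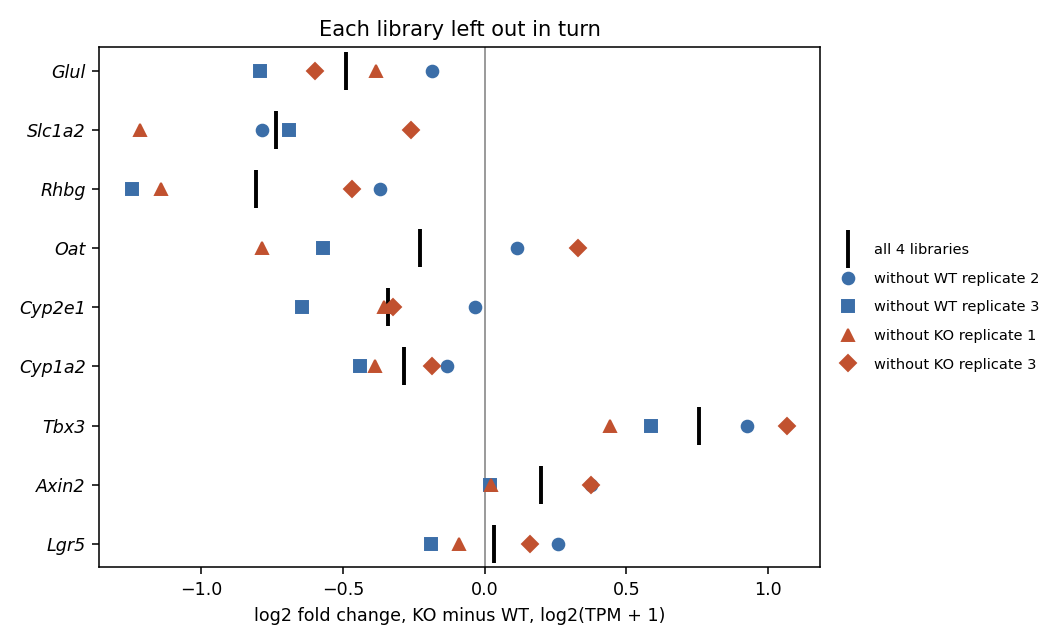
Log2 fold change (KO minus WT) of each of the 9 genes with all 4 libraries (black bars) and after omitting 1 library at a time (blue for WT, orange for KO). For *Axin2* the symbols coincide in 2 pairs. Values of *Glul*, *Slc1a2*, *Rhbg*, *Cyp2e1* and *Cyp1a2* stay below 0 and those of *Tbx3* and *Axin2* above it, while *Oat* and *Lgr5* lie on both sides. Except for *Axin2*, *Oat* and *Lgr5*, the sign could not change, because the KO and WT libraries did not overlap.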

How the data were processed

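Liver libraries of 2 WT and 2 *Usp21* KO mice were available and were assigned by their labels. Their numbers are 2 and 3 in WT and 1 and 3 in KO. Whether further livers were sequenced was not given in the sources used here. The authors estimated expression with Salmon against mm10 and deposited TPM per gene, and a second table in which these are log2(TPM + 1). The authors also counted reads per gene with HTSeq and deposited them as a TMM-scaled CPM signal, with its log2 values. Versions, annotation and strand setting were not given in the sources used here. The CPM table listed 428 of the 686 genes that reach 100 TPM in every library at 0 throughout, so TPM was the main measure. Whole reads were recovered for 100% of the CPM values within 0.02 reads, and edgeR called 12 genes on them. A count of 0 allows up to 3 reads there, which covers counting error only.

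The 9581 genes whose mean reached 1 TPM were tested on log2(TPM + 1) with limma 3.58.1 (lmFit, eBayes with trend, R 4.3.3), two-sided, with Benjamini-Hochberg adjustment. Fold changes are differences of mean log2(TPM + 1), which understates changes of low genes. Alternatives were pseudocounts of 0.1 and 5, other filters, upper quartile scaling, no moderation, the CPM values, edgeR 4.0.16 and leaving out each library. Counts of genes by direction or overlap under these settings were added after the data were seen. The members and lists were chosen with earlier results of these data known. Text names all 9 members and *Usp21*, up to 3 genes with the smallest p and up to 2 with the highest TPM from each other list, any Wnt ligand, receptor or feedback gene, and 5 nearest profiles for *Glul* and *Cyp2e1*. Here the smallest p was taken among genes that passed the filter. *Gls2*, *Gm38392* and *Glns-ps1* were named after their values were seen. GENCODE M21 (GRCm38) gave coordinates and shared transcript sequence. Scripts were tested on simulated data.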

Additional observations from a re-analysis of the deposited data

How the results depend on the processing

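The 9 pericentral genes kept an adjusted p above 0.05 under every alternative fit to the TPM of all 4 libraries that gave them a value (limma). The fits of the CPM values and of edgeR were not read for these genes, which had 0 to 2 recovered reads, under the floor of 3. Only *Glul*, *Cyp2e1* and *Cyp1a2* had any recovered read. Over all genes, the count with an adjusted p under 0.05 was 8, and it was 4 without the filter (1210 with an unadjusted p under 0.05), 0 without moderation (806), 1 on CPM (213), and 0 to 0 with each library left out (limma, 542 to 1188). The edgeR count was 12 (168).

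The median log2 fold change of the 9 genes was -0.29, and -0.57 to -0.036 with each library left out, the lowest without WT 3 and the highest without WT 2. *Oat* changed sign to 0.33 without KO 3 and to 0.12 without WT 2 (range -0.79 to 0.33). *Lgr5* changed sign to -0.011 with upper quartile scaling, to -0.09 without KO 1 and to -0.19 without WT 3 (range -0.19 to 0.26). The number of periportal genes with a log2 fold change under 0 was 1, but 5 with upper quartile scaling and 2 to 6 with each library left out. The causes of these shifts were not tested. No paired analysis was made because the labels name no litter or pair.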
